A study of Mus musculus with 12 samples.

Results

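Hair keratins and keratin-associated proteins are the material of the hair and of the sheath that moulds it, and the expression of their genes was followed here in mouse ear skin. The set was defined by gene symbol and by no measured value, but earlier results of these data were known when it was chosen. It holds the keratin-associated protein genes (Krtap followed by a digit), the keratins Krt25 to Krt28, Krt31 to Krt36, Krt71 to Krt75 and Krt81 to Krt86, and 7 other follicle genes, Tchh, Hoxc13, Msx2, Foxn1, Lef1, Dlx3 and Padi3. Krt33a and Krt33b stand for Krt33 in this range. That gave 83 of the 24532 genes in the deposited table. RNA of whole skin was sequenced in bulk in 12 libraries, 3 in each of 4 groups. Mice labelled C57BL/6 were raised either germ free (GF) or under specific-pathogen-free conditions (SPF). Their skin received ethanol, the vehicle, or MC903 (calcipotriol), an analogue of vitamin D that brings on a dermatitis resembling atopic dermatitis. The labels give 5 applications without settling whether several fell on 1 day, and the strain label ends in 7, 8 and 9 in place of 6 for GF MC903 4, GF ethanol 5 and GF MC903 5. SPF libraries are numbered 1, 2 and 3 and GF libraries 1, 4 and 5, and values below are given in that order. The labels do not state that each library of a group is a separate mouse, so the p-values reflect the spread among libraries, which may be technical. The sources used here do not give age or sex.

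A hair grows from matrix cells at the base of the follicle, which harden as they move up. In the shaft, type I and type II hair keratins pair into filaments, and keratin-associated proteins fill and cross-link the space between them. These proteins are grouped by composition into high sulphur, ultra-high sulphur and high glycine-tyrosine families. The inner root sheath around the shaft has its own keratins and trichohyalin (Tchh), a filament-binding protein hardened by peptidylarginine deiminases such as Padi3, and Krt75 marks the companion layer outside it. Hoxc13, Msx2, Foxn1, Lef1 and Dlx3 encode transcription factors of the matrix and of the differentiating shaft. Krt36 and Krt84 are a type I and a type II keratin that are also known from nail and from the filiform papillae of the tongue.

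Sequence before the annotated start was read for the genes whose behaviour the results turn on. Krt36 and Krt84 lie on different chromosomes and were the most abundant shaft keratins after MC903, whereas Krtap3-1, Krtap3-2 and Krtap3-3 are neighbours that differed in response. The 250 bases before the start are given from RefSeq on GRCm38.p6, all from the minus strand and written 5′ to 3′: chr11:100105627-100105876 for Krt36, chr15:101532821-101533070 for Krt84, chr11:99566631-99566880 for Krtap3-1, chr11:99556854-99557103 for Krtap3-2 and chr11:99550864-99551113 for Krtap3-3. The Krt36 window precedes a start that lies inside the outer bounds of that gene. Capitals mark TTTATNN or TTAATNN, called the HOXC13 letters here, and TATAAA, each on either strand. N is any base, so the HOXC13 letters are a loose form of that factor's site, which short AT-rich runs can match. The first pair of patterns can overlap TATAAA read on the other strand.
Krt36: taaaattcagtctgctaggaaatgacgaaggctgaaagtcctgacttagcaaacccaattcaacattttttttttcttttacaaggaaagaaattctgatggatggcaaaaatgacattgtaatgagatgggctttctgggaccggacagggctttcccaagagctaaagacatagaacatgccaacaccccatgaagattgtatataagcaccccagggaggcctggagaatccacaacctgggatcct
Krt84: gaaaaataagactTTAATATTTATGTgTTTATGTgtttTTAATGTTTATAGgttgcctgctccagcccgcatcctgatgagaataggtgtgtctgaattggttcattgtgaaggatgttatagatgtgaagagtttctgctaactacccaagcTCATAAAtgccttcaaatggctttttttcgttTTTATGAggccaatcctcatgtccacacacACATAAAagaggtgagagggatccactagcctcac
Krtap3-1: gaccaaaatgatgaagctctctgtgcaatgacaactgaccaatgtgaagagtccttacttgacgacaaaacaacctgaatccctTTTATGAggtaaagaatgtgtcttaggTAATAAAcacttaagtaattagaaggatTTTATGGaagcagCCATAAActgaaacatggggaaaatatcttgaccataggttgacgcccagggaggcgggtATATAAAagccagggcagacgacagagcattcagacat
Krtap3-2: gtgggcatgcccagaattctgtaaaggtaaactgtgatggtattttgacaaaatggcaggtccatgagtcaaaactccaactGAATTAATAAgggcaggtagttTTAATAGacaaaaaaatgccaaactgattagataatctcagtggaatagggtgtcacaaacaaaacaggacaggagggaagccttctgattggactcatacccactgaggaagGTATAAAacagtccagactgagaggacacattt
Krtap3-3: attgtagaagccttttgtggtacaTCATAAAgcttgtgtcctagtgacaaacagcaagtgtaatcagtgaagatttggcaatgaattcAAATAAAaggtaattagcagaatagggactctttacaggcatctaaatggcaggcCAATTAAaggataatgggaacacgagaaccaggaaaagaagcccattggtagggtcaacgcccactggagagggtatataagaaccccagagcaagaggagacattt

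The windows differed in these letters. The HOXC13 letters occurred 8 times in the Krt84 window, 5 times before Krtap3-1, 4 times before Krtap3-2, 3 times before Krtap3-3 and 0 times before Krt36. Windows were held for 69 of the 83 genes, 72 windows in all. Of these, 91.7% held the HOXC13 letters, against 47.7% of all 32851 windows. TATAAA, the core of the TATA box, was in 72.2% of the windows of the set and in 12.4% of all windows. It began 40 to 20 bases before the start in 51.4% and 2.5%. With TATAAA matches masked, the HOXC13 letters were left in 76.4% and 43.3%. CTTTGA, the core of LEF1 and TCF sites, was in 26.4% and 13.8%. Genes of a cluster arose by duplication and share sequence, so these shares are a description, and a match is not a binding site.

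The table holds estimated counts, between 36358294 and 48225425 per library. Levels are given as CPM, counts relative to library size after scaling by the trimmed mean of M-values (TMM). Gene length is taken into account only where FPKM is named. A gene was called where the adjusted p of edgeR's quasi-likelihood test, over the 16466 genes tested, was under 0.05. Fold changes are log2 values with a standard error (SE). In MC903 libraries the scaling matters: the median change over all genes was -0.1 in SPF and -0.07 in GF skin with TMM, and -0.68 and -0.58 on library totals. Keratins of the interfollicular epidermis (Krt5, Krt14, Krt1, Krt10) summed to between 20370 and 55960 CPM, and muscle and cartilage markers of the ear were present in every group. The library SPF MC903 1 stood apart for Krt36 and Krt84, and GF ethanol 1 for the genes of low level, so results that rest on them are given with and without them.

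Of the 83 genes, 60 passed the filter on low counts. The other 23 reached at most 0.723 CPM in any library, and Krtap27-1 and Krtap20-2 were at 0 in all 12. Among the 60, 13 had only 1 group in which all 3 libraries were at the filter's minimum, 11 of them GF MC903, so the filter itself leans toward genes high in that group and counts over those tested are descriptive. Members passing it were all 5 transcription factors, Krt75, 8 of 10 inner root sheath genes, 7 of 7 type I and 5 of 6 type II shaft keratins, 15 of 17 high sulphur, 12 of 14 high glycine-tyrosine and 6 of 17 ultra-high sulphur Krtap genes, and 1 of 6 other Krtap genes.

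MC903 moved a minority of the 60 genes tested in each housing, and most of these 60 genes had a mean under 1 CPM. In SPF skin 26 of the 60 genes were called, 21 higher and 5 lower, where 73.8% of all genes tested were called (35% higher, 38.8% lower). In GF skin 29 were called, 27 higher and 2 lower, where 68.5% of all genes were called (33.4% higher, 35.1% lower). Over the 60 genes, a smaller share than of all genes was therefore called in each housing, and the calls in the set lay mostly on the higher side. Among genes with a mean of at least 1 CPM the set's share was larger in SPF skin and close to that of all genes in GF skin. That mean is over all 12 libraries, so MC903 can itself lift a gene over the limit. Krt36, for one, went from 0 CPM with ethanol to a mean of 105 CPM with MC903 in SPF skin. Above the limit, 19 of 21 genes of the set were called in SPF skin (17 higher, 2 lower), against 11121 of 14123 genes tested. In GF skin 17 of 21 were called (15 higher, 2 lower), against 10551 of 14123. On library totals the SPF calls were 19 higher and 9 lower, where 13233 of 16466 genes tested were called. Without the low-count filter, 23 of 81 genes were called in SPF skin (21 higher, 2 lower; 59.4% of all genes, 28.3% higher and 31.2% lower) and 28 in GF skin (26 higher, 2 lower; 55.1%, 26.6% higher and 28.5% lower). The median change of the 60 genes was 0.36 in SPF and 1.32 in GF skin, and over the 81 without the filter it was 0.16 and 1.3. The responses share no libraries: 19 genes were higher in both, out of 21 in SPF and 27 in GF skin, and Krt32 and Lef1 were lower in both. Several of the 19 reached the filter's minimum in every library of a group only with MC903. Among them were Krt31, Krt33b, Krt34, Krt36, Krtap13, Krtap13-1, Krtap21-1 and Krtap6-2. The filter thus leans toward genes higher in both, and the share of all genes higher in both was not computed. In bulk skin, more RNA per cell and more cells of a type cannot be told apart.

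**Figure D1:**
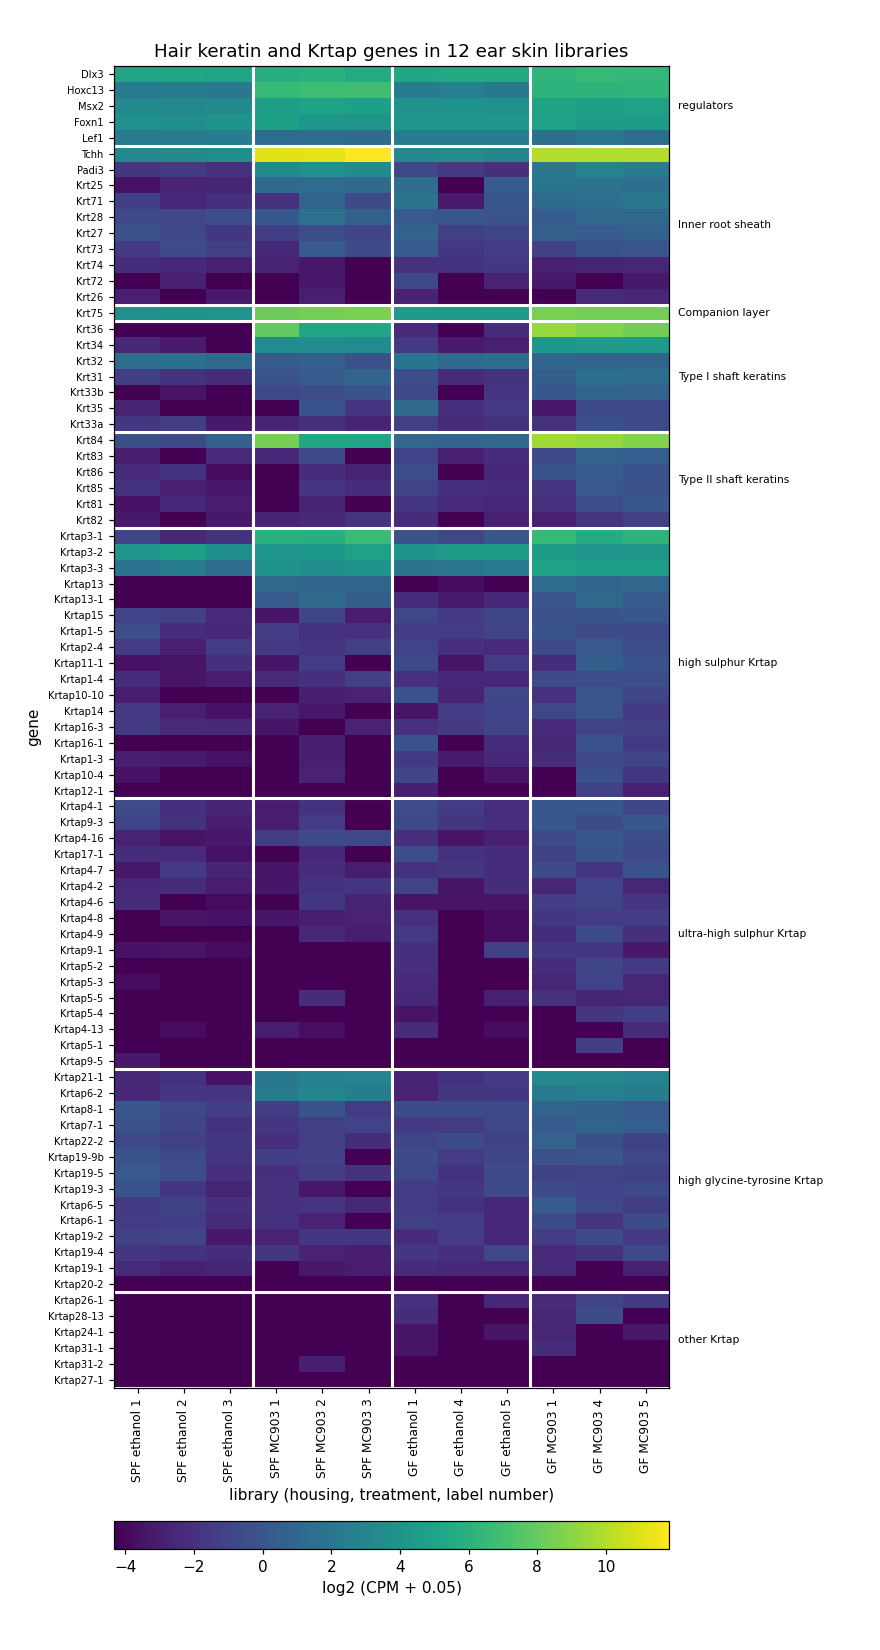
Level of each of the 83 genes (rows, grouped by role) in the 12 libraries (columns), as log2 of CPM plus 0.05. A few rows brighten in the MC903 columns, among them Tchh, Krt75, Krt36, Krt84 and Krtap3-1, while 62 rows have a mean under 1 CPM.

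Among the transcription factors, Hoxc13, Msx2, Dlx3 and Foxn1 rose and Lef1 fell with MC903 in both housings, although Foxn1 in SPF skin changed sign on library totals. Hoxc13, which binds promoters of hair keratin genes, was at 5.03, 4.99 and 4.32 CPM in SPF ethanol libraries and at 89.8, 115 and 120 CPM in SPF MC903 libraries. In GF skin it was at 5.27, 6.25 and 4.64 CPM with ethanol and at 70.5, 74.3 and 80.1 CPM with MC903. No MC903 library overlapped an ethanol library, and the 3 SPF MC903 libraries lay above the 3 GF ones. The rise was 4.5 (SE 0.14, adjusted p = 1.3e-10) in SPF and 3.80 (SE 0.14, adjusted p = 1.1e-09) in GF skin. Msx2, a homeobox repressor of the matrix, went from 9.72, 9.05 and 10.6 CPM to 26.6, 33.1 and 27.3 CPM in SPF skin (1.57, SE 0.10, adjusted p = 2.1e-08). In GF skin it went from 15.4, 14.7 and 13.7 CPM to 31.2, 29.6 and 30.0 CPM (1.05, SE 0.10, adjusted p = 1e-06). The MC903 levels of Msx2 overlapped between the housings and the ethanol levels did not.

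Lef1, the nuclear partner of beta-catenin, fell. It was at 4.81, 5.13 and 5.5 CPM with ethanol and 2.52, 2.57 and 2.40 CPM with MC903 in SPF skin (-1.04, SE 0.15, adjusted p = 3.2e-05). In GF skin it was at 5.83, 5.58 and 5.84 CPM and then at 3.09, 4.09 and 2.78 CPM (-0.79, SE 0.14, adjusted p = 0.00033). The groups did not overlap by treatment in either housing. Dlx3, a homeobox factor of the shaft and of epidermal differentiation, rose from 35.2 ± 1.60 to 55.5 ± 9.02 CPM in SPF skin (mean ± SD, n = 3; 0.66, adjusted p = 0.00015). It rose from 42.0 ± 3.64 to 83.0 ± 6.5 CPM in GF skin (0.98, adjusted p = 6.4e-06). On library totals the SPF change of Dlx3 was 0.08 (adjusted p = 0.47). Foxn1, whose loss gives the nude mouse, changed by 0.56 (adjusted p = 0.011) and 0.53 (adjusted p = 0.017), and on library totals by -0.01 and 0.02. Its calls were lost without SPF MC903 1 (adjusted p = 0.056) and without GF MC903 1 (adjusted p = 0.074).

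The genes grouped here under the inner root sheath divided. Tchh and its modifier Padi3 rose in both housings, while the 8 sheath keratins stayed under 4 CPM in every library. Whether the Tchh and Padi3 RNA came from sheath cells was not tested. Tchh was at 9.46, 10.2 and 13.1 CPM with ethanol and at 2202, 2293 and 3663 CPM with MC903 in SPF skin. In GF skin it was at 9.08, 11.2 and 8.67 CPM with ethanol and at 1012, 1022 and 1019 CPM with MC903. The 3 GF MC903 libraries were nearly equal and all lay below the lowest SPF MC903 library. The change was 7.96 (SE 0.24, adjusted p = 1e-10) in SPF and 6.72 (SE 0.23, adjusted p = 7.2e-10) in GF skin. Padi3 went from 0.247, 0.289 and 0.203 CPM to 10.7, 14.2 and 10.3 CPM in SPF skin (5.57, SE 0.32, adjusted p = 1.1e-08). In GF skin Padi3 went from 0.481, 0.275 and 0.189 CPM to 4.29, 7.64 and 5.36 CPM (4.17, SE 0.31, adjusted p = 2e-07). By outer gene bounds, Padi3 overlaps an annotated long noncoding RNA by 1951 bases, as do Msx2 (5900), Foxn1 (3905), Krt25 (415) and Krtap1-3 (917). Reads of both partners cannot be separated where exons overlap and strand was not used.

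Of the sheath keratins, Krt25 and Krt28, type I keratins of the inner root sheath, were called in SPF skin. Krt25 was at 0.038, 0.103 and 0.111 CPM with ethanol and 2.32, 2.49 and 2.40 CPM with MC903 in SPF skin (4.8, SE 1.01, adjusted p = 0.0009). In GF skin the ethanol libraries of Krt25 spread over 2.73, 0 and 1.28 CPM, and the MC903 libraries were at 3.92, 3.59 and 2.89 CPM (1.37, SE 0.72, adjusted p = 0.11). The GF groups of Krt25 thus did not overlap, but the ethanol libraries of that housing varied widely. Krt28 changed by 1.78 (adjusted p = 0.0013) in SPF skin, and by 1.16 without SPF MC903 2. Krt71, the type II partner in the sheath, was at 0.873 ± 0.849 CPM in SPF MC903 and 3.09 ± 0.842 CPM in GF MC903 skin and was not called in either response. Krt75, the companion layer keratin, rose from 13.9, 15.2 and 16.2 CPM to 297, 354 and 388 CPM in SPF skin (4.52, SE 0.11, adjusted p = 3.5e-11). In GF skin Krt75 went from 20.7, 22.3 and 21.1 CPM to 362, 330 and 332 CPM (4.0, SE 0.10, adjusted p = 1.5e-10). With MC903 the housings overlapped, and with ethanol every GF library lay above every SPF library.

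**Figure D2:**
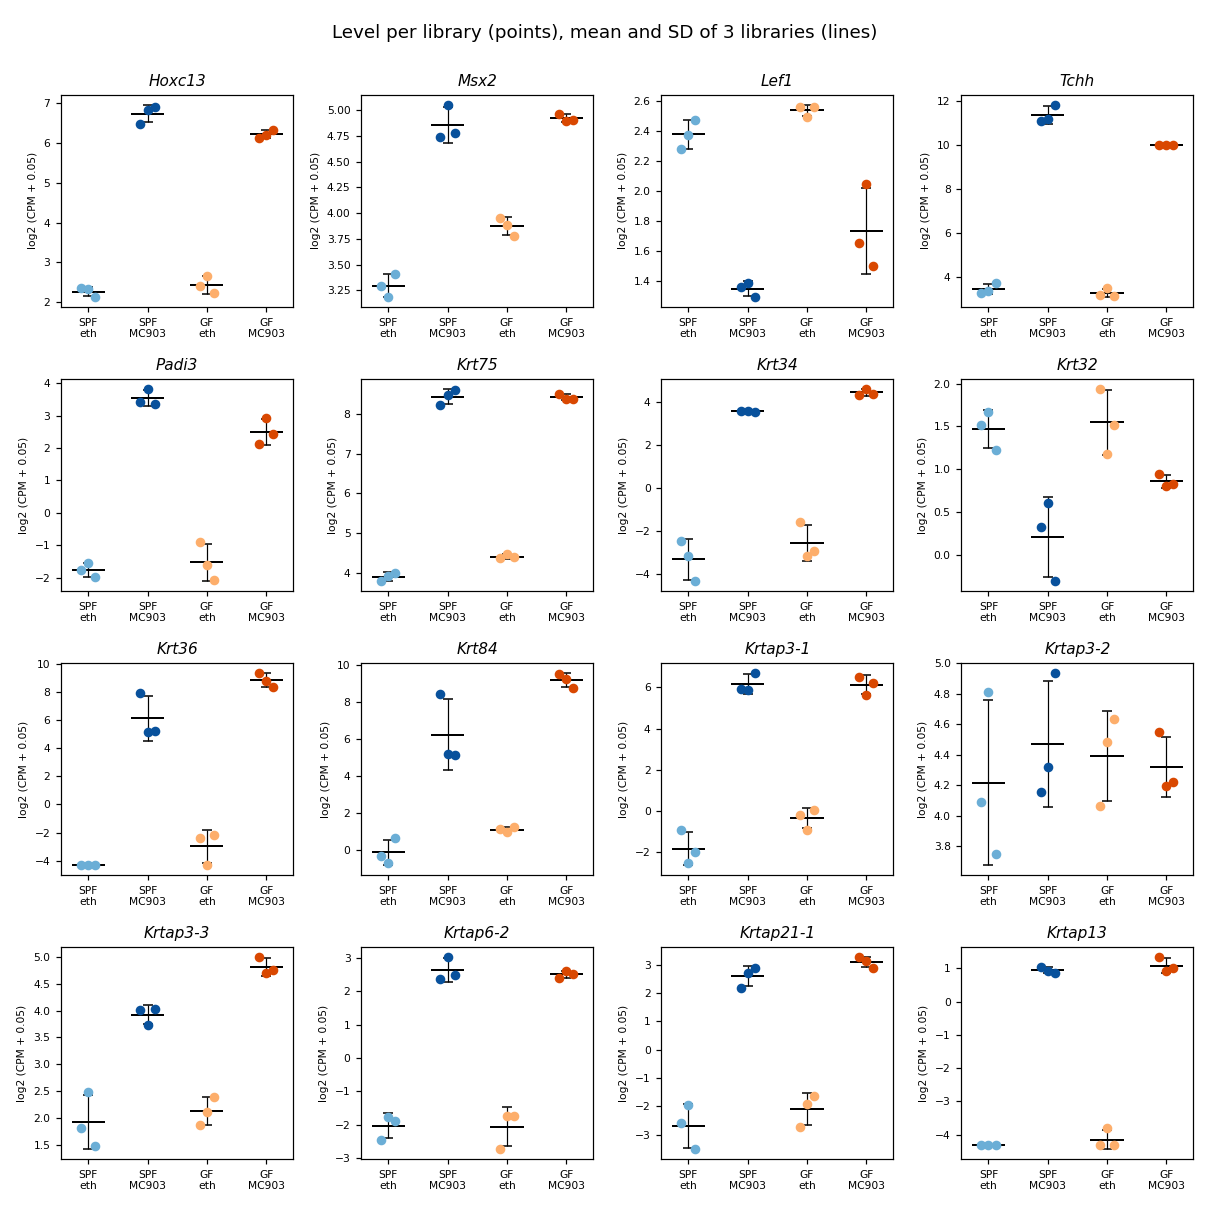
Level of 16 genes in each library (points) with the mean and SD of 3 libraries (lines), by housing and treatment, on a log2 axis of CPM plus 0.05 that differs between panels. Hoxc13, Tchh, Krt75, Krt34, Krt36, Krt84 and Krtap3-1 separate by treatment, SPF MC903 1 stands above the other SPF MC903 libraries for Krt36 and Krt84, and Krtap3-2 does not separate.

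Of the type I shaft keratins, Krt36, Krt34, Krt31 and Krt33b rose and Krt32 fell in both housings, and Krt35 and Krt33a were not called. Krt36 had no count in any SPF ethanol library and reached 242, 36.1 and 37.5 CPM with MC903. Against a floor of 3 counts over the ethanol group, its mean with MC903 was at least 5441-fold higher (adjusted p = 1.1e-05). In GF skin Krt36 was at 0.140, 0 and 0.168 CPM with ethanol and at 653, 443 and 322 CPM with MC903 (12.12, SE 1.17, adjusted p = 5.4e-06). All MC903 libraries lay far above all ethanol libraries, and SPF MC903 1 lay far above the other SPF MC903 libraries. Without it Krt36 was at 36.1 and 37.5 CPM, and the same floor gave a mean at least 1905-fold higher (adjusted p = 1.4e-07). With limma voom, the SPF change of Krt36 had an adjusted p of 0.062.

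Krt84, a type II shaft keratin, was likewise highest in SPF MC903 1 among the SPF libraries. It was at 0.722, 0.557 and 1.49 CPM with ethanol and at 348, 35.8 and 34.7 CPM with MC903 in SPF skin (7.22, SE 0.96, adjusted p = 1.9e-05). Without SPF MC903 1 the change was 5.24 (adjusted p = 4.8e-08). In GF skin Krt84 was at 2.09, 1.86 and 2.27 CPM with ethanol and at 754, 620 and 437 CPM with MC903 (8.19, SE 0.96, adjusted p = 8.7e-06). Per length, Krt84 was present at 0.93, 0.64 and 0.60 times the FPKM of Krt36 in the SPF MC903 libraries and at 0.75, 0.91 and 0.88 times in the GF MC903 libraries. The ratio thus stayed between 0.60 and 0.93 while the FPKM of Krt36 ran from 17.1 to 317. Krt36 took 68.3 to 96.3% of the summed FPKM of the type I shaft keratins in MC903 libraries, and Krt84 took 95.7 to 99.9% of that of the type II. Transcripts of Krt84 shared no run of 50 bases with another gene and those of Krt36 shared 0.432% of such runs, so reads of near-identical copies bear little on either. The epithelial keratins Krt4, Krt13 and Krt76, markers of oral and papilla epithelium, summed to 1.53 to 3.49 CPM over all libraries. Krt4 rose in SPF skin (0.75, adjusted p = 0.015) and was not called in GF skin (0.07, adjusted p = 0.81), and Krt76 was at 0 in 7 of the 12 libraries. The part of such epithelium in the Krt36 and Krt84 levels was not tested.

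The other shaft keratins were at lower levels. Krt34 was at 0.133, 0.062 and 0 CPM with ethanol and at 11.7, 11.9 and 11.4 CPM with MC903 in SPF skin (7.44, SE 0.41, adjusted p = 7.8e-09). Among GF libraries it was at 0.281, 0.063 and 0.084 CPM and then at 20.01, 24.2 and 20.4 CPM (7.19, SE 0.37, adjusted p = 1.3e-08). Its levels were tight within each MC903 group and did not overlap between housings. The SPF change of Krt34 ran from 6.84 without SPF ethanol 3 to 8.5 without SPF ethanol 1, and its GF change was 8.13 without GF ethanol 1. Krt31 rose by 2.44 (adjusted p = 0.0017) and 2.77 (adjusted p = 0.00051), and by 3.72 in GF skin without GF ethanol 1. Krt33b had 2 counts in all in SPF ethanol and 73 in SPF MC903 libraries, a ratio of 51.9 after scaling (exact 95% interval 13.9 to 436, counting error only; adjusted p = 0.00075). Both counts were in SPF ethanol 2, without which that group is at 0. In GF libraries Krt33b rose by 2.49 (adjusted p = 0.007), and by 3.63 without GF ethanol 1. Krt31, Krt33b and Krt34 shared 28.1, 24.2 and 33.1% of their 50-base runs with other genes, the largest part with one another, so the split between them is uncertain. Krt32, a keratin of the hair cuticle, went from 2.81, 3.13 and 2.29 CPM to 1.20, 1.47 and 0.757 CPM in SPF skin (-1.25, SE 0.26, adjusted p = 0.00077). In germ-free skin it went from 3.79, 2.22 and 2.81 CPM to 1.87, 1.69 and 1.72 CPM (-0.74, SE 0.25, adjusted p = 0.019). The groups did not overlap, but the GF call was lost without GF ethanol 1 (adjusted p = 0.11), GF MC903 4 or GF MC903 5 (each adjusted p = 0.0503). Krt81 and Krt83, type II cortex keratins, were called higher in GF skin at 1.86 (adjusted p = 0.026) and 2.40 (adjusted p = 0.022). Both calls were lost on leaving out any of GF ethanol 4, GF ethanol 5, GF MC903 4 and GF MC903 5 (adjusted p between 0.055 and 0.13), and Krt83 changed by 3.22 without GF ethanol 1. They were also lost on library totals (adjusted p = 0.083 for Krt81 and 0.058 for Krt83). Krt81 shared 37.7% of its 50-base runs with other genes and Krt83 22.1%, chiefly with Krt86, so the split between them is uncertain. For Krt83, GF MC903 was the only group with every library at the filter's minimum.

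Seen per length, the order of the set's genes changed with treatment and housing. With ethanol, Krtap3-2 and Dlx3 had the highest FPKM, 22.6 and 16.2 in SPF and 23.8 and 18.7 in GF skin. With MC903 in SPF skin the order of mean FPKM was Tchh at 378, Krtap3-1 at 99.6, Krt75 at 85.6, Krt36 at 51.3 and Krt84 at 44.1. For GF mice it was Krt36 at 230, Krt84 at 190, Tchh at 142, Krtap3-1 at 95.8 and Krt75 at 84.6. Within SPF skin the last 4 overlapped across libraries and Tchh lay above them. The SPF means of Krt36 and Krt84 rested on SPF MC903 1. Without it they were 17.8 and 11 FPKM, below Hoxc13 at 38.8, while Tchh was at 413, Krtap3-1 at 109 and Krt75 at 91.5. Within GF skin Krt36 and Krt84 overlapped across libraries, as did Krt84 and Tchh.

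The Krtap genes were called in part, to be read beside the 35% higher and 38.8% lower in SPF skin and the 33.4% higher and 35.1% lower in GF skin among all genes tested. Of the 15 high sulphur genes tested, 4 rose and 1 fell in SPF skin and 6 rose in GF skin. Of 12 high glycine-tyrosine genes, 2 rose and 2 fell in SPF skin and 5 rose in GF skin. Of 6 ultra-high sulphur genes, 1 rose in SPF and 2 in GF skin. By cluster, 3 of 14 Krtap genes tested on chromosome 11 rose in SPF skin, and 4 of 19 on chromosome 16 rose and 3 fell. For GF skin 6 of 14 and 7 of 19 rose. The 5 Krtap genes on chromosome 7, all of the Krtap5 family, were not tested.

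Krtap3-1, a high sulphur gene, had the highest mean FPKM of the Krtap genes after MC903. It was at 0.475, 0.124 and 0.203 CPM with ethanol and at 60.1, 58.5 and 104 CPM with MC903 in SPF skin (8.09, SE 0.45, adjusted p = 7.6e-09), a change of 8.79 without SPF ethanol 1. Under GF conditions it was at 0.842, 0.486 and 0.987 CPM and then at 91.3, 48.7 and 74.4 CPM (6.53, SE 0.40, adjusted p = 4.2e-08). The MC903 levels overlapped between housings. Krtap3-3, its neighbour, rose from 3.48, 5.55 and 2.75 CPM to 16.2, 13.2 and 16.3 CPM in SPF skin (1.96, SE 0.22, adjusted p = 4.4e-06). Among GF libraries it rose from 3.63, 4.27 and 5.21 CPM to 31.9, 25.8 and 26.9 CPM (2.69, SE 0.22, adjusted p = 4.5e-07). Krtap3-2, which lies between them, was at 17, 28 and 13.4 CPM with ethanol and at 17.8, 19.9 and 30.6 CPM with MC903 in SPF skin. The groups overlapped, with a change of 0.22 (SE 0.26, adjusted p = 0.46), and of -0.34 on library totals. It was -0.04 without SPF MC903 3, and without SPF ethanol 2 the adjusted p was 0.046. In GF skin Krtap3-2 was at 16.7, 22.3 and 24.7 CPM and then at 23.3, 18.2 and 18.6 CPM (-0.08, SE 0.26, adjusted p = 0.8; 0.04 without GF ethanol 5). Of these 3 neighbours, Krtap3-2 had the highest FPKM with ethanol and the smallest change. Krtap3-3 shared 41.3% of its 50-base runs with other genes and Krtap3-2 28.9%, chiefly with each other, against 8.83% for Krtap3-1.

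Among the genes on chromosome 16, Krtap13 and Krtap13-1 (high sulphur) and Krtap21-1 and Krtap6-2 (high glycine-tyrosine) rose in both housings. Krtap13 had no count in the SPF ethanol libraries and reached 2.02, 1.85 and 1.78 CPM with MC903, at least 97.5-fold higher relative to 3 counts over the group (adjusted p = 1.9e-07). In germ-free skin it was at 0, 0.021 and 0 CPM and then at 2.5, 1.83 and 1.95 CPM (adjusted p = 3.9e-07). That is 1 count against 222, a ratio of 303 (exact 95% interval 53.8 to 12022), and without GF ethanol 4 the ethanol group is at 0. Krtap13 shared 24.9% of its 50-base runs with other genes. Krtap13-1 was not counted in SPF ethanol libraries and stood at 1.22, 2.21 and 1.32 CPM after MC903, by the same floor at least 82.0-fold higher (adjusted p = 2.7e-06). For GF mice it was at 0.160, 0.063 and 0.126 CPM and then at 0.908, 2.03 and 1.26 CPM (3.55, adjusted p = 7.3e-05). The MC903 levels of Krtap13-1 overlapped between housings. Krtap21-1 rose from 0.119 ± 0.085 to 6.16 ± 1.48 CPM in SPF skin (5.69, adjusted p = 4.3e-08; 6.30 without SPF ethanol 2) and from 0.195 ± 0.0875 to 8.56 ± 1.07 CPM in GF skin (5.45, adjusted p = 7.2e-08). Krtap6-2 rose from 0.201 ± 0.060 to 6.25 ± 1.64 CPM (4.95, adjusted p = 1.9e-08) and from 0.202 ± 0.088 to 5.64 ± 0.393 CPM (4.79, adjusted p = 6.1e-08). For both genes every MC903 library lay above every ethanol library.

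At the low end, Krtap16-3, Krtap19-3 and Krtap19-5 were called lower in SPF skin by small margins. Krtap16-3 was at 0.285, 0.144 and 0.129 CPM with ethanol and 0.050, 0 and 0.099 CPM with MC903 (-1.95, adjusted p = 0.048). Krtap19-3 changed by -2.07 (adjusted p = 0.045) and Krtap19-5 by -1.48 (adjusted p = 0.041). Each call was lost on leaving out 9 of the 12 libraries singly, with adjusted p up to 0.16, 0.33 and 0.23, highest for each without SPF ethanol 1 (for Krtap16-3 equally without SPF MC903 2). Without SPF ethanol 1, Krtap19-3 changed by -0.96 and Krtap19-5 by -0.87. Krtap16-3 ran from -2.75 without SPF MC903 3 to -1.34 without SPF MC903 2, and Krtap19-3 was at -3.62 without SPF MC903 1. Krtap7-1 and Krtap8-1, of the high glycine-tyrosine class, were called higher in GF skin, at 2.05 (adjusted p = 0.001) and 1.3 (adjusted p = 0.014). The Krtap8-1 call was lost without GF MC903 1 (adjusted p = 0.054) and on library totals (0.79, adjusted p = 0.098).

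**Figure D3:**
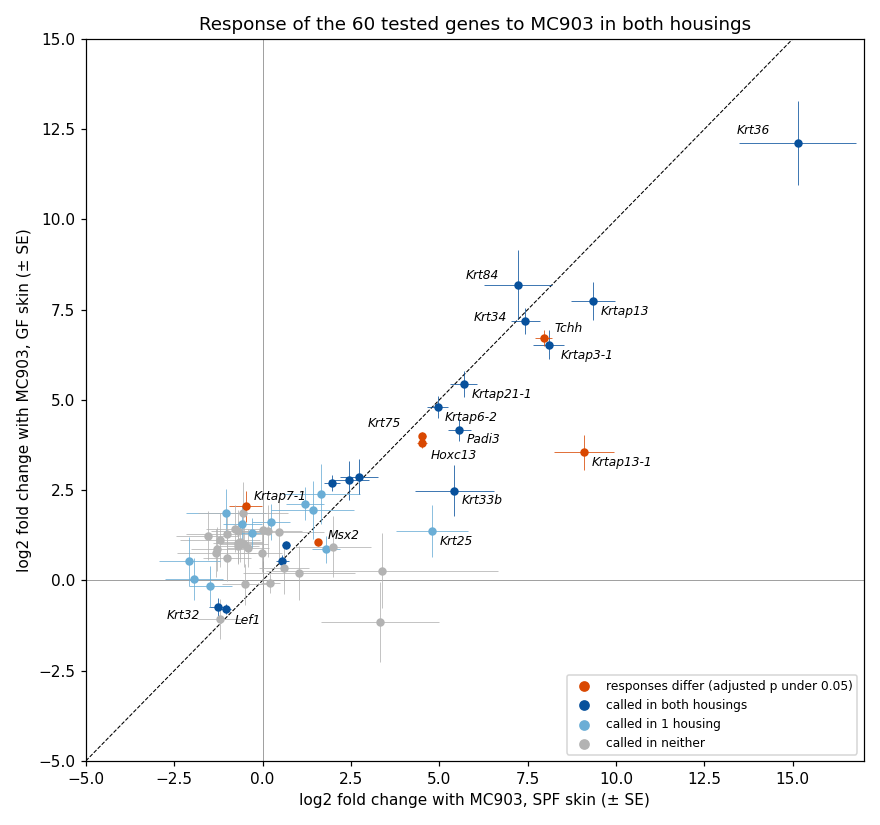
Change with MC903 in SPF skin (horizontal) against that in GF skin (vertical) for the 60 genes tested, as log2 fold change with SE bars; the dashed line marks equal change. Genes whose responses differ by their own test are orange, and Tchh, Hoxc13, Krt75, Msx2 and Krtap13-1 lie below the line.

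The difference between the responses was tested as an interaction. It was called for 6 of the 60 genes, where 17% of all genes tested were called (7.75% higher, 9.26% lower). The difference was negative, a smaller response in GF skin, for 5 of the 6, whereas its median over the 60 genes was 0.64, against 0.02 over all genes tested. The split of calls also varied: without SPF MC903 2 there were 10 of 65, 5 higher and 5 lower, where 2640 of 16723 genes were called. Among genes with a mean of at least 1 CPM it was 4 of 21, all lower, where 2859 of 14123 were called. Without the filter it was 6 of 81 genes, 1 higher and 5 lower, where 12.3% of all genes were called (5.39% higher, 6.94% lower). The difference was -1.24 (SE 0.26, adjusted p = 0.0071) for Tchh, -0.70 (SE 0.18, adjusted p = 0.02) for Hoxc13, -0.52 (SE 0.13, adjusted p = 0.017) for Krt75 and -0.52 (SE 0.13, adjusted p = 0.021) for Msx2. For Tchh and Hoxc13 the ethanol levels overlapped between housings and the MC903 levels did not. For Krt75 and Msx2 the MC903 levels overlapped and ethanol levels were higher in GF skin. For Krtap13-1 the difference was -5.55 (adjusted p = 0.016), a fitted value that depends on the prior count, with SPF ethanol at 0 and GF ethanol at 17 counts in all. Krtap7-1 was the 1 gene with a larger response in GF skin (2.53, SE 0.63, adjusted p = 0.018). It was at 0.76, 0.474 and 0.203 CPM with ethanol and 0.25, 0.360 and 0.428 CPM with MC903 in SPF skin, and at 0.281, 0.296 and 0.504 CPM and then 1.19, 1.83 and 1.46 CPM in GF skin. Only its GF MC903 libraries stood apart. The Msx2 call was lost without SPF ethanol 2 (adjusted p = 0.054) and the Krtap7-1 call without SPF ethanol 1 (adjusted p = 0.051), and limma voom gave an adjusted p of 0.059 for Hoxc13.

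Several genes with large changes showed no called difference. It was -3.02 (SE 5.43, adjusted p = 0.76) for Krt36, a fitted value against SPF ethanol libraries at 0, and 0.96 (SE 1.21, adjusted p = 0.64) for Krt84. Without SPF MC903 1 the Krt84 difference was 2.95 (adjusted p = 0.0009). For Padi3 it was -1.40 (SE 0.47, adjusted p = 0.063), and it was called by DESeq2 (adjusted p = 0.013), without GF MC903 4 (adjusted p = 0.027) and without GF ethanol 5 (adjusted p = 0.04). For Krt25 it was -3.43 (adjusted p = 0.089), called without GF ethanol 4 (adjusted p = 0.0009), and for Krtap3-1 -1.56 (adjusted p = 0.096), called without SPF ethanol 1 (-2.26, adjusted p = 0.042).

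With ethanol alone, GF minus SPF skin was called for 8 of the 60 genes, all higher in GF skin, where 22% of all genes were called (11.6% higher, 10.3% lower). Without the filter it was 6 of 81, all higher, where 15.8% of all genes were called (8.46% higher, 7.3% lower). Msx2 was higher by 0.58 (SE 0.10, adjusted p = 0.0029) and Krt75 by 0.50 (SE 0.09, adjusted p = 0.0047), without overlap between the groups. The other 6 rested on few counts. Krt25 was higher by 3.96 (adjusted p = 0.018), Krtap10-10 by 4.05 (adjusted p = 0.022; 7.32 without SPF ethanol 1) and Krt35 by 4.69 (adjusted p = 0.043). Krtap13-1, at 0 in SPF ethanol libraries, was at least 6.04-fold higher against 3 counts over the group (adjusted p = 0.013). Krt33b had 2 counts in SPF and 38 in GF libraries, a ratio of 20.4 (exact 95% interval 5.27 to 174; adjusted p = 0.035). Krt35, a type I keratin of the matrix and cuticle, shows the pattern: it was at 2.23, 0.190 and 0.273 CPM in GF and at 0.095, 0 and 0 CPM in SPF skin. Its highest library was GF ethanol 1, as it was for Krt25, Krt33b, Krtap10-10, Krtap13-1 and Krtap16-1. Krtap16-1 was at 0 in all SPF ethanol libraries and at 0.802, 0 and 0.168 CPM in GF skin, at least 16.7-fold higher by the same floor (adjusted p = 0.0496). Without GF ethanol 1 the count of called genes fell to 3, and those of Krt25 (2.90, adjusted p = 0.077), Krt33b (2.90, adjusted p = 0.15), Krt35 (2.74, adjusted p = 0.24), Krtap10-10 (3.43, adjusted p = 0.076) and Krtap16-1 (adjusted p = 0.18) were the calls lost. It was also 3 without SPF ethanol 2 or SPF ethanol 3 and 5 without SPF ethanol 1. Calls over all genes fell as well, to 2691 of 16695 without GF ethanol 1. They were 2627 of 16667, 2354 of 16694 and 2333 of 16664 without SPF ethanol 1, 2 and 3. The calls of Krt25, Krt33b, Krt35 and Krtap16-1 were also lost without any 1 of the 3 SPF ethanol libraries, that of Krt33b without GF ethanol 5, and that of Krtap10-10 without SPF ethanol 2 or SPF ethanol 3 (adjusted p = 0.074 and 0.078). Over all 12 libraries, Krt35 lost its call on leaving out any of 8 and Krtap16-1 any of 10. SPF ethanol 1 held all SPF ethanol counts of Krt35, and SPF ethanol 2 those of Krt33b. Krtap10-10 lies within the outer bounds of Tspear, and whether their exons overlap was not tested. It shared 44.1% of its 50-base runs with other genes, 43.6% with Gm2696.

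With MC903, GF minus SPF skin was called for 32 of the 60 genes, 29 higher and 3 lower, where 41.7% of all genes were called (20.8% higher, 20.9% lower). Without the filter it was 30 of 81, 27 higher and 3 lower, where 32.5% of all genes were called (16.1% higher, 16.4% lower). The 3 that were lower in GF skin were Tchh (-1.42, SE 0.18, adjusted p = 7.4e-05), Padi3 (-1.03, SE 0.24, adjusted p = 0.0041) and Hoxc13 (-0.53, SE 0.12, adjusted p = 0.0042). The higher ones included 4 type II and 3 type I shaft keratins and 19 Krtap genes. These counts by class do not stand for independent genes, and the filter leans toward genes high in GF MC903 skin. The type II keratins Krt81, Krt83 and Krt86 shared 37.7, 22.1 and 43.3% of their 50-base runs with other genes. Krt36 was higher by 2.17 (SE 0.66, adjusted p = 0.023), and by 3.69 without SPF MC903 1. Krt84 was higher by 2.11 (SE 0.70, adjusted p = 0.03), and by 4.10 without SPF MC903 1. All 3 GF libraries lay above all 3 SPF libraries for both, but the Krt36 call was lost without SPF MC903 2, SPF MC903 3 or GF MC903 1 (adjusted p between 0.056 and 0.07) and with DESeq2 (adjusted p = 0.11). The Krt84 call was lost without GF MC903 1, GF MC903 4, SPF MC903 2 or SPF MC903 3 (adjusted p between 0.055 and 0.08). Krt34 was higher by 0.88 (SE 0.24, adjusted p = 0.011), Krtap3-3 by 0.89 (SE 0.21, adjusted p = 0.0044) and Dlx3 by 0.58 (SE 0.11, adjusted p = 0.0012), each with no overlap between the housings. Lef1 was higher by 0.41 (adjusted p = 0.045), a call lost on leaving out any library but GF MC903 5 (adjusted p between 0.052 and 0.21).

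The other genes higher in GF skin with MC903 were at low levels. Krtap26-1 was at 0 in all 6 SPF libraries and at 0.142, 0.445 and 0.286 CPM in GF MC903 skin, at least 10.6-fold higher by the floor of 3 counts (adjusted p = 0.016). Krt81 was at 0, 0.103 and 0 CPM in SPF and 0.199, 0.695 and 1.0 CPM in GF skin (4.02, SE 0.89, adjusted p = 0.0034; 3.41 without SPF MC903 1). All its SPF MC903 counts were in SPF MC903 2, and Krt81 shared 32.9% of its 50-base runs with Krt86. Krtap1-3 had 3 counts in SPF MC903 libraries, all in SPF MC903 2, and 41 in GF MC903 libraries, a ratio of 14.1 (exact 95% interval 4.49 to 71.1; adjusted p = 0.0065). Krtap7-1 was higher by 2.12 (adjusted p = 0.0024), Krtap8-1 by 1.59 (adjusted p = 0.011; 2.23 without SPF MC903 2) and Krtap22-2 by 1.97 (adjusted p = 0.012; 1.25 and adjusted p = 0.077 without GF MC903 1). Krtap16-3 was higher by 2.72 (adjusted p = 0.016), by 2.11 without SPF MC903 2 and by 3.52 without SPF MC903 3, with the call lost without GF MC903 4 (adjusted p = 0.055). Krtap19-3 was higher by 2.52 (adjusted p = 0.033), by 4.08 without SPF MC903 1, and not called on leaving out GF MC903 1, GF MC903 5, SPF MC903 2 or SPF MC903 3 (adjusted p between 0.064 and 0.096). Krt27 (1.49, adjusted p = 0.048) was not called without 7 of the 12 libraries, which were all 6 MC903 libraries and SPF ethanol 2. The count of 32 fell to 18 of 65 without SPF MC903 3, where 5652 of 16750 genes tested were called. Among genes with a mean of at least 1 CPM it was 9 of 21, 6 higher and 3 lower, where 6713 of 14123 were called.

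Genes of low level were mostly highest in the same libraries. Of the 83 genes, 62 had a mean under 1 CPM. Their summed level was 12.6, 8.54 and 4.76 CPM with ethanol and 8.56, 16.1 and 9.67 CPM with MC903 in SPF skin. Under GF conditions it was 21.8, 7.92 and 11.6 CPM with ethanol and 27.4, 38.9 and 30.9 CPM with MC903. The GF MC903 libraries were the 3 highest of the 12, and GF ethanol 1 came next. Of the 60 such genes with any count, 35 had all 3 GF MC903 libraries above all 3 SPF MC903 libraries and 0 had them all below, against 6.14% above and 5.98% below among all genes under 1 CPM. In 39 of the 60, GF ethanol 1 was the highest of the 6 ethanol libraries, against 14.7% of all genes under 1 CPM. Even in the highest library the 62 genes summed to no more than 38.9 CPM, so single genes rested on few counts.

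**Figure D4:**
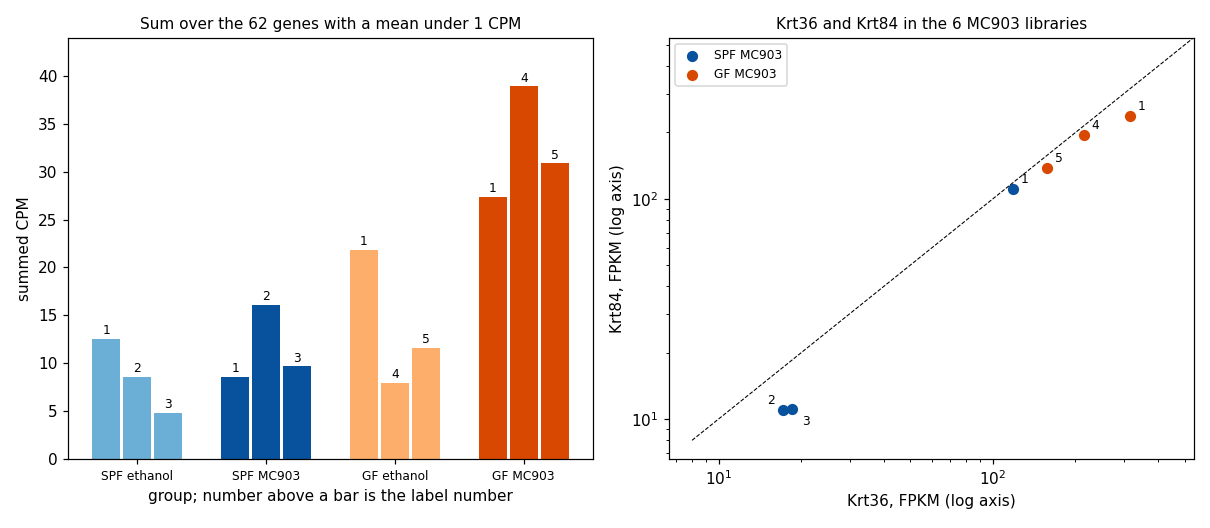
Left, summed level (CPM) of the 62 genes with a mean under 1 CPM in each library, bars numbered by library label; the 3 GF MC903 bars, 27.4 to 38.9, are the highest. Right, FPKM of Krt84 against that of Krt36 in the 6 MC903 libraries on log axes, with a dashed line of equality; all 6 points lie below the line and SPF MC903 1 lies near the GF libraries.

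Other follicle genes were read from lists of partners, signals and cell types, also chosen with earlier results of these data known. Of 8 tested partners of shaft and sheath differentiation, 5 were higher and 1 lower in SPF skin and 6 higher and 1 lower in GF skin. Among all genes tested, 35% were higher and 38.8% lower in SPF skin, and 33.4% higher and 35.1% lower in GF skin. The smallest rises called were those of Lpar6 (0.23 in SPF and 0.35 in GF skin) and Liph (0.41 in GF skin). Tchhl1, a relative of trichohyalin, changed by 8.54 and 7.47, the desmosomal protein gene Cdsn by 3.32 and 2.40, the transglutaminase Tgm3 by 3.71 and 1.86, the hair calcium-binding protein gene S100a3 by 2.22 and 1.47, and the deiminase Padi1 by -2.36 and -1.44, each called in both housings. The difference between responses was called for Tgm3 (-1.85, adjusted p = 0.00016) and Cdsn (-0.92, adjusted p = 0.00056), and both are also made in the epidermis. Dsg4, the hair desmoglein, reached at most 0.201 CPM and was not tested.

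Signals that act on the follicle were called in both directions. Of 29 tested, 9 were higher and 17 lower in SPF skin and 6 higher and 17 lower in GF skin. Among all genes tested, 35% were higher and 38.8% lower in SPF skin and 33.4% higher and 35.1% lower in GF skin, and the counts of the cell type markers below stand beside the same shares. The Wnt target Axin2 changed by -2.54 and -1.55, the ligand Wnt10b by -5.59 and -2.29, the Hedgehog target Gli1 by -1.84 and -1.31, and Wnt10a by 1.42 and 0.89. The ligand Bmp2 rose by 2.33 and 1.86, the transcription factor Ovol1 by 1.41 and 1.18, and hairless (Hr), a nuclear corepressor, by 1.28 and 1.31. Shh, the ligand of matrix cells, was at 0 in all 6 MC903 libraries and at most 0.106 CPM in the others. Of 10 bulge and stem cell markers, 8 were lower and 1 higher in SPF skin and 7 lower and 2 higher in GF skin. The higher ones were Tbx1 (0.67 and 0.32) and, in GF skin, Nfatc1 (0.49). The markers summed to 1426 to 1932 CPM with ethanol, 761 to 852 CPM in SPF MC903 and 1221 to 1341 CPM in GF MC903 skin. Most of each sum was Krt15, at means of 1279 and 553 CPM with ethanol and MC903 in SPF skin and of 1457 and 1014 CPM in GF skin. Of 8 dermal papilla markers, 4 were lower in SPF skin, and 5 were lower and 2 higher in GF skin, the higher ones being Crabp1 (0.58) and Sostdc1 (0.37). Melanocyte markers summed to between 138 and 167 CPM in every group, with 1 higher and 2 lower of 10 in SPF and 2 higher and 4 lower in GF skin.

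Markers of other cell types moved with the same contrasts. Of 4 proliferation markers all rose in both housings, summing to 111 to 163 CPM with ethanol and 440 to 548 CPM with MC903. Sebaceous markers summed to 6569 to 6723 CPM with ethanol and 1430 to 1778 CPM with MC903 in SPF skin, and to 4519 to 5180 and 1850 to 2219 CPM in GF skin. Most of each sum was Scd1, at means of 6395 and 1381 CPM in SPF and 4714 and 1785 CPM in GF skin. Of the 4 sebaceous markers, 3 fell in SPF skin, and 2 fell and 1 rose in GF skin. The one that rose was Elovl3, from 169 ± 6.51 to 220.01 ± 24.7 CPM. Of 4 interfollicular keratins, 2 rose and 1 fell in SPF skin and 4 rose in GF skin. Cartilage markers rose in 1 and fell in 2 of 4 cases in SPF skin and fell in 3 of 4 in GF skin. Skeletal muscle markers fell in 4 of 4 cases in both housings. All 4 were higher in GF than in SPF skin under each treatment, summing to 1182 to 1281 against 708 to 822 CPM with ethanol and 743 to 803 against 447 to 493 CPM with MC903. The part of these shifts in the changes of the hair genes was not tested.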

How the data were processed

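Per the labels' protocols, skin RNA came from a kit for fibrous tissue, and TruSeq RNA libraries were read on a HiSeq4000. HISAT2 2.1.0, StringTie 1.3.4d, Trimmomatic, bcl2fastq 2.20.0 and the mm10 build appear in the submitters' processing notes. The sources used here do not give the annotation or the use of strand. The authors deposited 1 table with FPKM values and estimated counts, the latter in whole numbers, for each gene in each library, per the file headers. Counts were tested as deposited with edgeR 4.0.16 in R 4.3.3: TMM scaling, filterByExpr by group (minimum count 10, total 15), 1 coefficient for each of the 4 groups over 12 libraries, glmQLFit and glmQLFTest, and Benjamini-Hochberg adjustment over 16466 genes at 0.05. The common dispersion was 0.022. FPKM served only to set levels of different genes side by side. Genes were matched to RefSeq GRCm38.p6 for 82 of the 83 (Krt85 was not matched). Runs of 50 bases shared with other genes came from GENCODE transcripts, and motifs from RefSeq windows.

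Members and lists were chosen with earlier results of these data known. Genes named with values were the 7 that are no keratins, keratins with a group mean of at least 1 CPM, the 10 Krtap genes of highest mean, and the 3 called genes of largest change in each direction of each comparison; Krtap10-10, Krt33a and 2 genes at 0 were named beyond this rule after their values were seen, and so were the class of low genes, the Krtap classes by textbook family and TATAAA. Alternatives were library totals, DESeq2 1.42.0 size factors and test, limma 3.58.1 voom, no low-count filter, a mean of at least 1 CPM, only the groups compared, a replicate block and leaving out each library. Replicate pairs differed beyond sampling noise (chi-square per degree of freedom 17.2 to 44.9 in 12 pairs). The edgeR script was tested on simulated data.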

Additional observations from a re-analysis of the deposited data

Results flagged for a closer look

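The response to MC903 differed between GF and SPF skin for 6 genes by the test of the difference itself (edgeR's quasi-likelihood interaction). As GF minus SPF on the log2 scale, it was -1.24 for Tchh (adjusted p = 0.0071), -0.70 for Hoxc13 (adjusted p = 0.02), -0.52 for Krt75 (adjusted p = 0.017), -0.52 for Msx2 (adjusted p = 0.021), -5.55 for Krtap13-1 (adjusted p = 0.016) and 2.53 for Krtap7-1 (adjusted p = 0.018). The size for Krtap13-1 depends on the prior count, since it was at 0 in SPF ethanol libraries, and its MC903 levels overlapped between housings. The calls did not all hold under the alternatives: Hoxc13 had an adjusted p of 0.059 with limma voom, Msx2 of 0.054 without SPF ethanol 2 and Krtap7-1 of 0.051 without SPF ethanol 1. Of the 6, 4 were also lost with a replicate block, as given under the dependence on processing. Of all genes tested 17% were called, so 6 of 60 is a smaller share than over all genes. Among genes with a mean of at least 1 CPM it was 4 of 21, close to the 2859 of 14123 called over all genes. Each gene had 3 libraries in each of 4 groups.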

How the results depend on the processing

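Over 88 gene results, 55 stayed on 1 side of the threshold in every alternative. Of 1593 gene values under alternatives, 140 lost a call, 7 gained one and 4 changed sign: Foxn1 in SPF skin (-0.01 on library totals), Krtap3-2 in SPF skin (-0.34 on library totals, -0.04 without SPF MC903 3) and Krtap3-2 in GF skin (0.04 without GF ethanol 5). Leaving out each library, Krtap3-2 ran from -0.04 to 0.58 in SPF and from -0.23 to 0.04 in GF skin. Apart from leaving out libraries, counts of called genes moved beyond 1.5 times in these cases. At a mean of at least 1 CPM only 21 of the genes were tested. There the GF response had 17 calls, where 10551 of 14123 genes were called. Between MC903 groups it was 9, where 6713 of 14123 were called. Between ethanol groups it was 4 with limma voom, 3 at a mean of at least 1 CPM and 5 in a fit of only the groups compared. Over all genes these 3 settings gave 4211 of 16466, 3736 of 14123 and 4136 of 16065. Leaving out each library gave 23 to 26 calls in the SPF response, 25 to 35 in the GF response, 5 to 10 for their difference, 3 to 9 between ethanol groups and 18 to 35 between MC903 groups. These fits tested 60 to 65 genes of the set. Calls over all genes moved as well. They ran from 11536 to 12244, 10371 to 11390, 2129 to 2765, 1475 to 3981 and 5652 to 6784 in the same order. With a replicate block within housing, the SPF response had 24 genes called, the GF response 26 and their difference 4 (2 higher, 2 lower), where Hoxc13 (adjusted p = 0.053), Msx2 (0.056), Krtap13-1 (0.052) and Krtap7-1 (0.057) lost their calls. Over all 16466 genes tested the block gave 11950, 11072 and 2303 calls. Whether equal numbers mark 1 mouse was not settled. The deviations of 6 same-numbered pairs correlated between -0.02 and 0.14, and those of 12 other pairs between -0.13 and 0.06. With 3 libraries a group, correlations this weak cannot show pairing to be present or absent. No paired analysis was possible between housings because each mouse was raised in only 1 of them. Depth limits the genes under 1 CPM, which rest on few counts.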

Other observations

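Krt35 and Krt33a, type I shaft keratins that were called in neither response, ended at levels far from those of Krt36. Krt35 was at 0, 0.797 and 0.230 CPM in SPF MC903 libraries 1, 2 and 3 and at 0.057, 0.584 and 0.573 CPM in GF MC903 libraries 1, 4 and 5. The libraries highest for Krt36, GF MC903 1 and SPF MC903 1 within their groups, were the lowest for Krt35 and for Krt31 in the same groups. Krt31 was at 0.824, 1.26 and 1.88 CPM in SPF MC903 and at 1.33, 3.09 and 2.78 CPM in GF MC903 libraries. With 3 libraries a group this order was not tested, and it was noticed in these values.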
